A study of Arabidopsis thaliana with 16 samples.

Results

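Polygalacturonases cut the homogalacturonan backbone of pectin, the polymer that glues neighbouring plant cells together, and the genes described here are 5 polygalacturonase genes of *Arabidopsis thaliana* with 1 pectin methylesterase gene. They were selected by gene identifier and are 6 of the 27655 genes in the files. *ADPG1* (AT3G57510), *ADPG2* (AT2G41850) and *QRT2* (AT3G07970) are known from the opening of siliques and anthers, floral organ shedding and the separation of pollen tetrads. *PGX1* (AT3G26610) and *PGX3* (AT1G48100) are known from cell expansion and from guard cells, and *PME3* (AT3G14310) encodes an enzyme that removes methyl groups from homogalacturonan. Polygalacturonases act mainly on homogalacturonan from which the methyl groups have been removed, so methylesterases prepare their substrate, while inhibitor proteins bind either enzyme. In a seed, the radicle has to pass the endosperm and the seed coat at germination, and both cell separation and wall loosening take part in that step.

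RNA was sequenced from whole germinating seeds of the *sweet1* line, a single T-DNA line in Col-0 with an insertion in the sugar transporter gene *SWEET1*, so every library carried the mutation and no wild-type library was used here. Seeds were imbibed for 3 d at 4 °C, grown on agar in constant light at 22 °C and moved at 24 h after imbibition (HAI) to liquid medium for 6 h, with RNA taken at 30 HAI. The liquid medium held no addition (control), 60 mM glucose (Glc), 5 µM abscisic acid (ABA), or 60 mM Glc with 5 µM ABA (ABA + Glc), and the labels give 4 biological replicates of each. ABA is the hormone that holds back germination, and the comparisons ask how each treatment, and Glc on top of ABA, moved the 6 genes.

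Values are those deposited under the heading TPM (a per-length measure of transcript abundance), without read counts, so the depth of each library is unknown and the only measure of error is the variation among replicate libraries. Their sums were 951008 to 1053766 per library, which means that they had been rescaled between libraries. The gene table of the study has no column for ABA replicate 3 or ABA + Glc replicate 3, and its methods mention the removal of outliers. Means and tests therefore use 14 libraries (n = 4 in control and Glc, n = 3 with ABA, alone or with Glc), and values of the omitted libraries stand beside them. On the second principal component of all 16 libraries, ABA + Glc replicate 3 lay at -42.8 and the other 15 lay between -10.89 and 12.26. Tests were made with limma on log2(TPM + 0.5) over 17498 genes, and a gene is said to have risen or fallen where its p, adjusted by Benjamini-Hochberg, was under 0.05 and its log2 fold change was 0.289 or more in size (1.22-fold). Fold changes are on that log2(TPM + 0.5) scale. The labelled tissue was checked by markers. All 6 germinating seed markers were detected, from the storage protein gene *CRA1* to the isocitrate lyase gene *ICL* at a control mean of 14410 TPM. With ABA 3 of these 6 rose, 0 fell and 3 did not pass, where 10.4% of all genes tested rose and 13.3% fell. Control and ABA means were 156.5 and 1631 TPM for *CRA1*, 90.1 and 185.5 TPM for *CRC*, and 41.5 and 551.7 TPM for *OLEO1*. All 6 endosperm and all 4 embryo epidermis markers were above 0.5 TPM, whereas 3 of 7 seed coat markers were, and *BAN* and *TT10*, which define the developing seed coat, were at 0.

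The coding sequences show how close these genes are and whether their reads can be told apart. *ADPG1* and *ADPG2* were the closest pair, with 990 identical bases of 1289 aligned (76.8%), and the other pairs of polygalacturonases shared 61.59 to 66.34%. The 3 genes *ADPG1*, *ADPG2* and *QRT2* each had 9 exons, with *PGX1* at 7 and *PGX3* at 6, and coding exons of 208 and 82 bases were present in all 5. No stretch of 31 bases in the transcript models of the 5 polygalacturonases recurred in another protein-coding gene. In *PME3*, 7 of 2293 such stretches were shared with *PME2*. The search took only the model with the longest coding sequence of each gene, and no noncoding RNA. The stretch that encodes the polygalacturonase active-site pattern of PROSITE was found in *ADPG1*, *ADPG2*, *QRT2* and *PGX3*, and is shown from the TAIR10.1 genome of RefSeq because it encodes part of the catalytic site. It is spliced from 2 exons, so each genomic span includes an intron, and capitals mark the 9 bases that encode its histidine-centred core.
*ADPG1* (chr3:21284135-21284338, minus strand): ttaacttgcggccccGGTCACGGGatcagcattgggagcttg
*ADPG2* (chr2:17462525-17462660, minus strand): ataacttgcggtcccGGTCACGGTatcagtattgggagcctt
*QRT2* (chr3:2542367-2542740, plus strand): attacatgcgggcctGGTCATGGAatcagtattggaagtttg
*PGX3* (chr1:17768396-17769133, plus strand): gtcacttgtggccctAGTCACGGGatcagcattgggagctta
Over these 42 bases *ADPG1* matched *ADPG2* and *PGX3* at 36 each and *QRT2* at 32, and *PGX1* held no match to the pattern.

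Promoters are shown for the closest pair, of which only *ADPG2* was detected at more than a trace, and for *PME3*. Each is the 250 bases before the annotated start, read from TAIR10.1 on the strand of the gene. Capitals mark a block of 25 bases that *ADPG1* and *ADPG2* share, the letters ACGTG (the core of the ABA-responsive element) and, on the opposite strand in *PME3*, TTATCC (a sugar-repressive element).
*ADPG1* (chr3:21285942-21286191, minus strand): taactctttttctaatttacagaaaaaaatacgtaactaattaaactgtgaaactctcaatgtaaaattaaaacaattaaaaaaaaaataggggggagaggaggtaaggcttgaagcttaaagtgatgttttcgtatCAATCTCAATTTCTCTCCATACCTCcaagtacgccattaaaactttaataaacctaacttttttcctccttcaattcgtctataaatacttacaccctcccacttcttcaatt
*ADPG2* (chr2:17464243-17464492, minus strand): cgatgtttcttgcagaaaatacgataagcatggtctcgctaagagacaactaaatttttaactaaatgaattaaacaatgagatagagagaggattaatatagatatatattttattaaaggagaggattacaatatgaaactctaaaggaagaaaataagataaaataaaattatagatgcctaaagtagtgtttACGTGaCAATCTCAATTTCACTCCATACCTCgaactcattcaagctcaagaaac
*PME3* (chr3:4775259-4775508, minus strand): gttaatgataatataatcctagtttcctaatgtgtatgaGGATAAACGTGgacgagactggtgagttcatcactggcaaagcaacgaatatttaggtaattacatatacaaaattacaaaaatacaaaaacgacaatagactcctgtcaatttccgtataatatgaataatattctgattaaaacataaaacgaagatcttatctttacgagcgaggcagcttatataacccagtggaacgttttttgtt
The shared block had 24 of 25 identical bases and began 113 bases before the start of *ADPG1* and 48 bases before that of *ADPG2*. With at most 1 differing base it was in 0 of the other 27441 promoters, searched on the strand of each gene. The block was picked as the longest such stretch of this pair. A match over 25 bases is rare for any stretch, so nothing is read from this 0. ACGTG began 54 bases before the start of *ADPG2*, next to the block, and 205 bases before that of *PME3*, where TTATCC lay directly beside it. It was also 209 bases before the start of *PGX1*, and 22.9% of 27443 promoters of this length held it on either strand. TTATCC was in 12.5% of them. CACGTG (the G-box, which contains ACGTG) was in 6.49% and in 0 of the 6 genes. TAACAAA (a gibberellin-responsive element) was in 16.1%, and in the windows of *QRT2* and *PGX1*. These matches describe the sequence and are not evidence of binding.

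Of the 6 genes, *ADPG2* and *PME3* were well detected, *PGX3* was low and *ADPG1*, *QRT2* and *PGX1* were at or near 0 in every treatment. Of the tested genes, 1 of 3 rose with Glc, 2 of 3 fell with ABA, and 1 of 3 rose when Glc was added to ABA. Over all 17498 genes tested, 1.14% rose and 2.95% fell with Glc (4.09% in either direction). With ABA 10.4% rose and 13.3% fell (23.7%), and with ABA + Glc against the control 6.95% rose and 10.1% fell (17%). From ABA to ABA + Glc 0.732% rose and 1.91% fell (2.65%). Members tested number only 3, so these shares are set beside their counts as background and nothing is read from the comparison of shares.

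*ADPG2*, on chromosome 2 from 17461655 to 17464242 (minus strand), was the polygalacturonase of cell separation that these seeds expressed. It rose with Glc in the absence and in the presence of ABA and fell with ABA alone, and its level with ABA + Glc was above the control in every library. Control replicates 1 to 4 held 18.4, 16.3, 15.6 and 19.6 TPM, and Glc replicates 1 to 4 held 24.5, 26.4, 24.7 and 28.4 TPM. ABA replicates 1, 2 and 4 held 11.4, 11.6 and 11.9 TPM, with 14.6 TPM in the omitted replicate 3. ABA + Glc replicates 1, 2 and 4 held 21.9, 20.4 and 21.1 TPM, with 23.4 TPM in the omitted replicate 3. The order was thus ABA, control, ABA + Glc and Glc, and no library of one treatment reached into the range of another, the omitted libraries included.

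**Figure D1:**
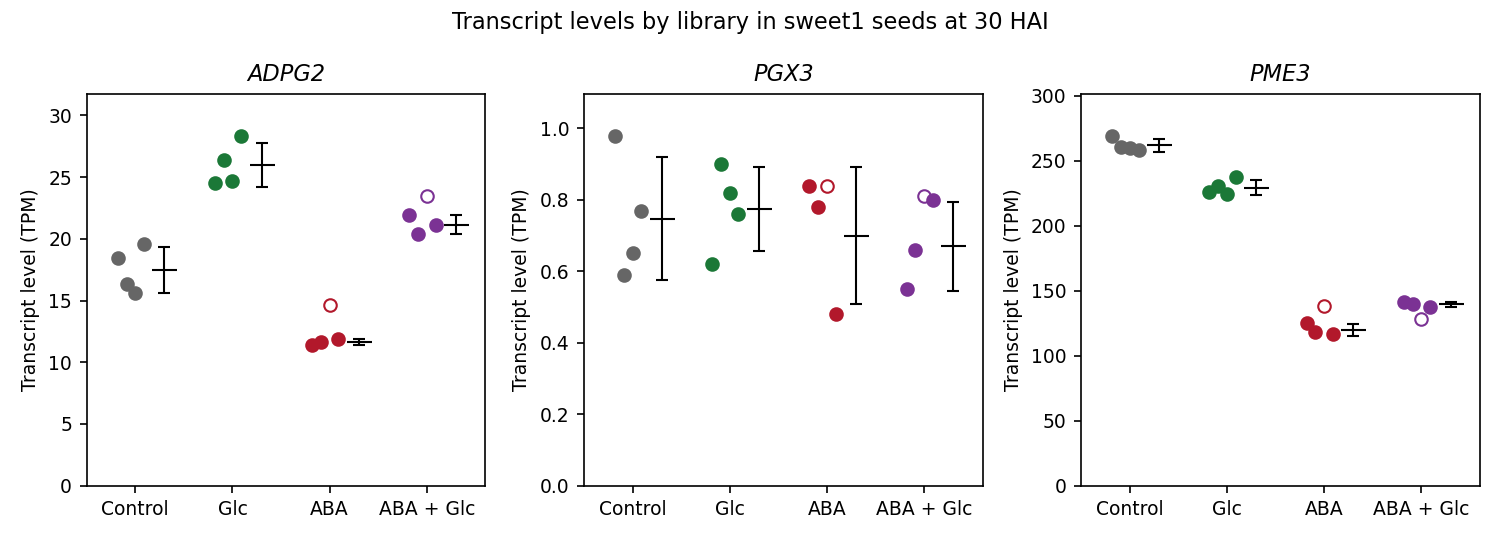
Transcript level (TPM, vertical axes from 0) of *ADPG2*, *PGX3* and *PME3* by treatment. Each point is 1 library, open points are the omitted ABA and ABA + Glc replicate 3, and the black marks are the mean ± SD of the filled points. *ADPG2* was lowest with ABA (11.6 TPM) and highest with Glc (26.0 TPM), *PGX3* stayed under 1 TPM throughout, and *PME3* was highest in the control (262.1 TPM).

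The mean of *ADPG2* was 17.5 ± 1.83 TPM in control libraries (SD, n = 4). In Glc libraries it was 26.0 ± 1.79 TPM (SD, n = 4), or 148.7% of the control. The rise with Glc was 0.56 on the log2 scale (SE 0.07, limma adjusted p = 0.000186). With ABA the mean was 11.6 ± 0.235 TPM (SD, n = 3), or 66.54% of the control, and the log2 fold change was -0.56 (SE 0.08, limma adjusted p = 2.66e-05). Glc and ABA therefore moved *ADPG2* by nearly the same amount in opposite directions.

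When both were given, *ADPG2* stood at 21.1 ± 0.762 TPM (SD, n = 3), or 120.9% of the control. Against ABA alone this was a rise of 0.83 (SE 0.08, limma adjusted p = 4.66e-05). Against the control the log2 fold change of 0.27 had a limma adjusted p of 0.0146 but lay under the minimum fold, and over all 16 libraries it was 0.31 (limma adjusted p = 0.0151) and passed. Against Glc alone it was -0.29 (limma adjusted p = 0.0143), just past the minimum, and over all 16 libraries -0.25 (limma adjusted p = 0.0589), which did not pass. For ABA + Glc against Glc, 5.43% of all genes rose and 6.01% fell (11.4% in either direction). The call on either of these last comparisons also turned on single libraries. Against the control *ADPG2* passed without ABA + Glc replicate 2 (0.30), control replicate 1 (0.30) or control replicate 4 (0.33). Against Glc it did not pass without ABA + Glc replicate 2 (-0.27), ABA + Glc replicate 4 (-0.29), Glc replicate 2 (-0.28) or Glc replicate 4 (-0.25).

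The Glc effect on *ADPG2* was 0.83 with ABA and 0.56 without it. The difference between these was 0.27 (SE 0.11, 95% interval 0.04 to 0.50), with a limma adjusted p of 0.183, so a different response to Glc in the presence of ABA was not shown. For this difference, 1.79% of all genes were higher and 1.94% lower (3.73% in either direction).

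**Figure D2:**
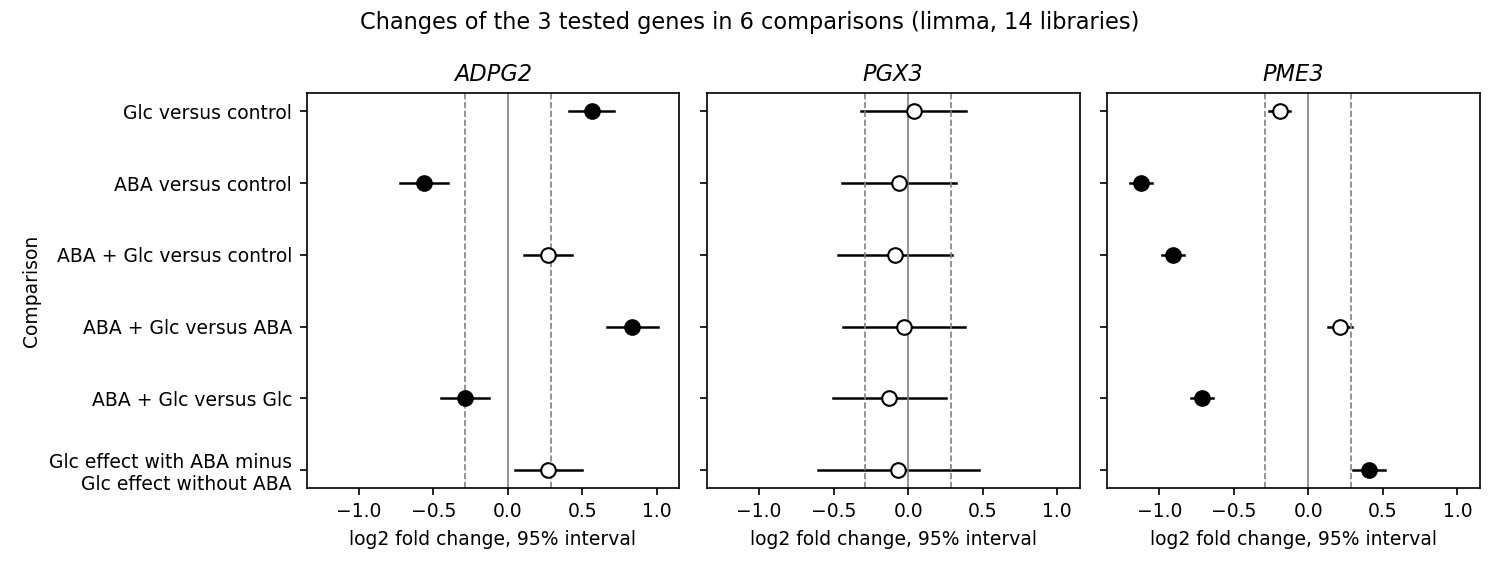
log2 fold change (horizontal axes) of *ADPG2*, *PGX3* and *PME3* in 6 comparisons (vertical axis), with 95% intervals from limma over 14 libraries. Filled points passed the test, open points did not, and dashed lines stand at the minimum of 0.289 in either direction. *ADPG2* passed in 4 comparisons and *PME3* in 4, and the intervals of *PGX3* include 0 in all 6.

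Cell type markers were compared beside these changes. Summed endosperm markers, led by the expansin gene *EXPA2*, were 1330 to 1633 TPM in the control, 1620 to 1706 TPM with Glc, 1576 to 1661 TPM with ABA and 1631 to 1730 TPM with ABA + Glc. In ABA replicate 3 they stood at 1400 TPM, and in ABA + Glc replicate 3 at 1817 TPM. *EXPA2* carried most of these sums, with means of 1283 TPM in the control and 1389 TPM with ABA, and the mannanase gene *MAN7* had means of 16.9 and 48.7 TPM. In the same order the means were 141.45 and 148.98 TPM for *EPR1* and 3.455 and 3.863 TPM for *MAN5*. *MAN6* (33.9 and 32.5 TPM) and *MAN2* (4.335 and 3.37 TPM) were lower with ABA. Of the 6 endosperm markers, 1 rose with ABA and 0 fell by limma, where 10.4% of all genes tested rose and 13.3% fell. Seed coat markers summed to 376.3 to 420 TPM in the control and to 430.6 to 452.4, 411.3 to 465 and 459.4 to 478.9 TPM with Glc, ABA and ABA + Glc, with 493.5 TPM in the omitted ABA library. *SBT1.7* carried most of these sums, with means of 372.4 TPM in the control and 430.6 TPM with ABA. The other 2 tested seed coat markers fell with ABA, *MUM4* from 13.45 to 10.75 TPM and *MUM2* from 6.05 to 3.61 TPM. Over all 16 libraries 1 of the 3 tested fell. The part of changing tissue shares in the change of *ADPG2* was not tested, and in whole seeds fewer cells of a type and less RNA per cell cannot be told apart.

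*PME3*, on chromosome 3 from 4771833 to 4775258 (minus strand), fell with ABA and was much more abundant than any of the 5 polygalacturonases. Control replicates 1 to 4 held 269.6, 260.7, 259.8 and 258.4 TPM, and Glc replicates 1 to 4 held 225.9, 230.6, 224.2 and 237.4 TPM. ABA replicates 1, 2 and 4 held 125.4, 118.3 and 116.8 TPM, with 138.1 TPM in the omitted replicate 3. ABA + Glc replicates 1, 2 and 4 held 141.2, 140.1 and 137.4 TPM, with 128.7 TPM in the omitted replicate 3. The control and Glc libraries stood apart from each other and from those with ABA, while ABA and ABA + Glc overlapped once the omitted libraries were counted.

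With Glc alone *PME3* was at 229.5 ± 5.93 TPM (SD, n = 4), or 87.56% of the control, a log2 fold change of -0.19 (SE 0.03, 95% interval -0.26 to -0.12, limma adjusted p = 0.00245). It lay under the minimum fold and did not pass. From ABA to ABA + Glc it was 0.22 (SE 0.04, 95% interval 0.14 to 0.30, limma adjusted p = 0.00456), also under the minimum, and over all 16 libraries it was 0.14 (limma adjusted p = 0.163). The difference between the 2 Glc effects was 0.41 (SE 0.05, 95% interval 0.30 to 0.51, limma adjusted p = 0.000275) and passed, also over all 16 libraries (0.33, limma adjusted p = 0.0169). Against Glc alone, ABA + Glc lowered *PME3* by a log2 fold change of -0.72 (SE 0.04, limma adjusted p = 6.2e-10). *PME3* and *ADPG2* both fell with ABA (-1.12 and -0.56), but with ABA + Glc *PME3* remained at 53.25% of the control whereas *ADPG2* was at 120.9%.

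Markers of the embryo epidermis were lower in the same libraries as *PME3*. The 4 of them summed to 612.7 to 682.8 TPM in the control and 612.6 to 618.6 TPM with Glc. With ABA the sum was 448 to 476.4 TPM and with ABA + Glc 448.7 to 465.4 TPM. The omitted ABA + Glc library was higher, at 495.8 TPM. *PDF1* had means of 310.3 TPM in the control and 229.5 TPM with ABA and the cuticle gene *FDH* of 210.4 and 112.9 TPM, whereas the factor genes *ATML1* and *PDF2* had means of 34.5 and 86.1 TPM in the control and 33.6 and 87.2 TPM with ABA. The part of the epidermis in the fall of *PME3* was not tested.

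*PGX3*, on chromosome 1 from 17766738 to 17769951 (plus strand), was tested but lay near the limit of the filter. Its lowest and highest values were 0.59 and 0.98 TPM in the control, 0.62 and 0.90 TPM with Glc, 0.48 and 0.84 TPM with ABA and 0.55 and 0.80 TPM with ABA + Glc, and the omitted ABA and ABA + Glc libraries held 0.84 and 0.81 TPM. The 4 ranges overlapped. Its log2 fold change was 0.04 with Glc (95% interval -0.32 to 0.39), -0.06 with ABA (-0.44 to 0.32) and -0.03 from ABA to ABA + Glc (-0.44 to 0.38), with limma adjusted p of 0.925, 0.831 and 0.973. These intervals reach past the minimum of 0.289 on either side. At levels under 1 TPM the added 0.5 makes log2 fold changes smaller. Those of *PGX3* therefore cannot be set beside those of *ADPG2* in size. The gene overlaps *AT1G48110* and a long noncoding RNA on the opposite strand, and no source used here says whether counting used strand.

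*ADPG1*, on chromosome 3 from 21283338 to 21285941 (minus strand), and *PGX1*, on the same chromosome from 9776958 to 9780553 (plus strand), were listed at 0 in 15 of 16 libraries. The exception for each was Glc replicate 3, at 0.06 TPM. *QRT2*, from 2540913 to 2543613 (plus strand) and overlapping *AT3G07980* on the other strand, was listed at 0 in all 16. These 3 genes were under the filter and so not in the main limma fit. An exact permutation test was run on them, but values that are nearly all 0 leave it no other outcome, and nothing is read from it. With no counts, no upper limit can be given for them. The tetrad separation genes *QRT1*, a pectin methylesterase, and *QRT3*, a polygalacturonase, had means of at most 0.125 and 0.015 TPM in any treatment.

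Of the 73 genes annotated as polygalacturonases, 31 were at 0 in all 14 libraries, 21 had a mean over 1 TPM and 9 a mean over 10 TPM. *ADPG2* was the third at 19.4 TPM on this per-length scale, after *AT4G23820* (49.0 TPM) and *AT3G15720* (31.01 TPM), by the mean over all treatments. With ABA alone, at 11.6 TPM, it was also below *AT3G16850* (18.2 TPM) and *AT5G41870* (15.99 TPM). The list follows the annotation text, and it also holds *AtRLP42*, a receptor-like protein, and *PGL3* (13.0 TPM), a relative of the noncatalytic subunit. Among 67 pectin methylesterase genes, 26 were at 0, 14 were over 1 TPM and 6 over 10 TPM, and *PME3* was the second at 196.1 TPM after *ATPMEPCRA* (AT1G11580) at 740.2 TPM.

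**Figure D3:**
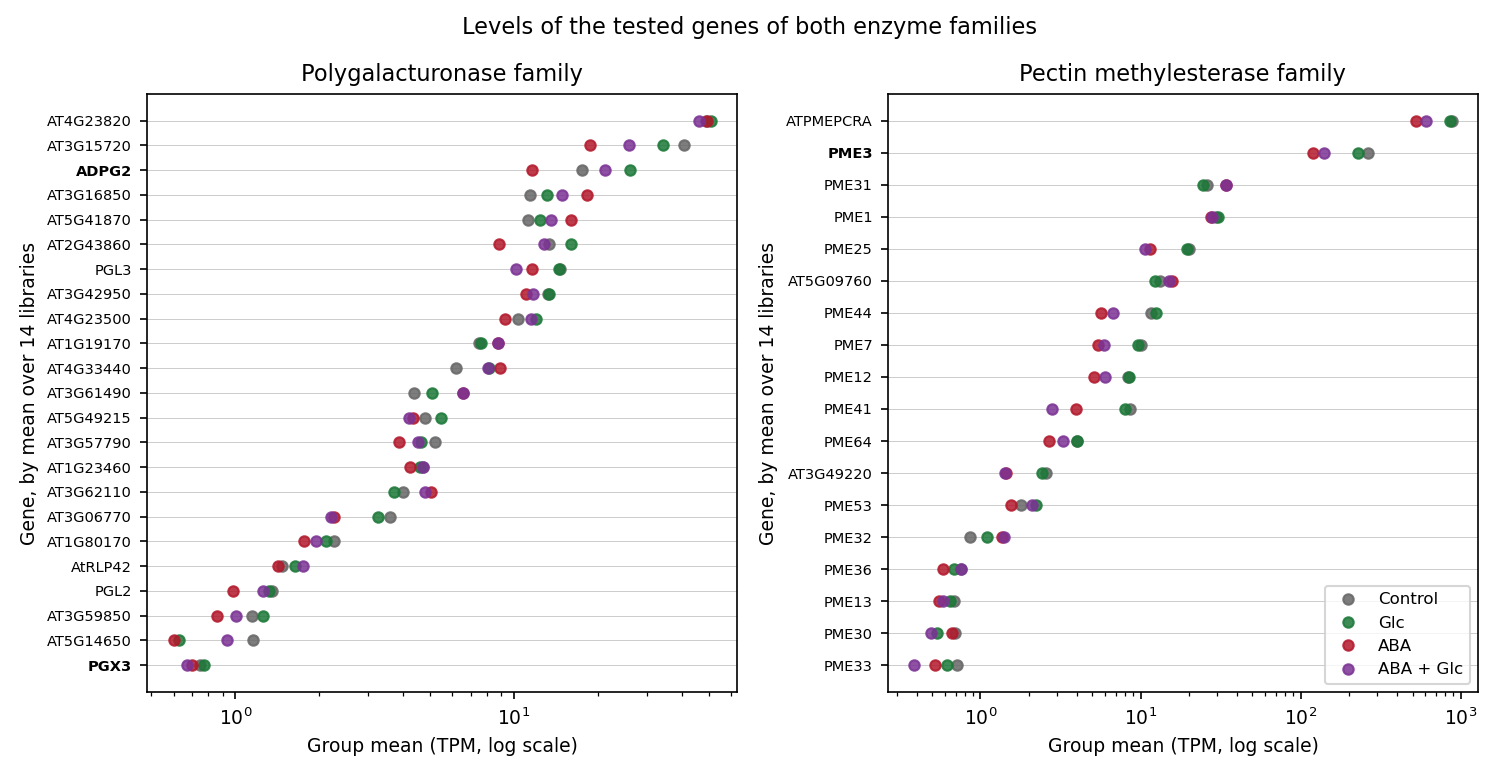
Group means (TPM, log scale on the horizontal axes) of the tested genes of the polygalacturonase and pectin methylesterase families, ordered by their mean over 14 libraries, with 1 colour per treatment. *ADPG2* is the third of 23 polygalacturonase genes and *PGX3* the last, and *PME3* is the second of 18 pectin methylesterase genes.

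The summed TPM of the polygalacturonase family moved less than *ADPG2* did. It was 226 to 235.8 TPM in control libraries and 233.9 to 256.5 TPM with Glc. With ABA it was 203.1 to 208.3 TPM and with ABA + Glc 215.4 to 224.6 TPM, omitted libraries included. *ADPG2* made up 6.91 to 8.34% of this sum in the control, 10.2 to 11.1% with Glc, 5.51 to 5.73% with ABA and 9.09 to 10.2% with ABA + Glc, with 7.03 and 10.6% in the omitted ABA and ABA + Glc libraries. The share of *PME3* in its family was 19.5 to 21.9% in the control and 17.5 to 19.4% with Glc. It was 14.6 to 16.6% with ABA and 15.4 to 16.5% with ABA + Glc, with 17.5 and 16.6% in the omitted libraries.

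**Figure D4:**
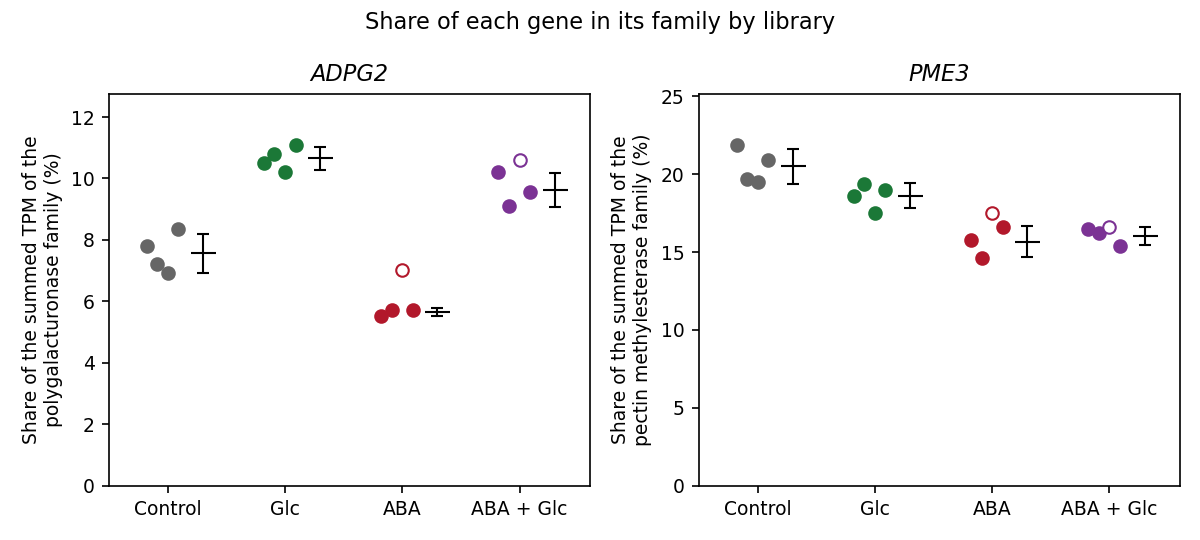
Share of *ADPG2* in the summed TPM of the polygalacturonase family and of *PME3* in that of the pectin methylesterase family (%, vertical axes from 0) by treatment. Points are libraries, open points the omitted ones, and black marks the mean ± SD of the filled points. The share of *ADPG2* was 5.51 to 5.73% with ABA and 10.2 to 11.1% with Glc, and that of *PME3* was 19.5 to 21.9% in the control.

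Beside *ADPG2* and *PGX3*, 21 polygalacturonases were tested. Of these 5 rose and 5 fell with ABA and 11 did not pass (5 and 4 over all 16 libraries), with a median log2 fold change of -0.13 against -0.00 over all genes tested. Of all genes tested, 10.4% rose and 13.3% fell with ABA. The largest fall was that of *AT3G15720*, which had a mean of 40.8 ± 2.12 TPM in control libraries (SD, n = 4) and 18.7 ± 1.13 TPM in ABA libraries (SD, n = 3). Its log2 fold change was -1.10 (limma adjusted p = 6.5e-09). *AT3G16850* rose by 0.66 (limma adjusted p = 6.04e-06) and *AT2G43860* fell, with a log2 fold change of -0.57 (limma adjusted p = 0.000733). The family thus moved in both directions under ABA.

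With Glc alone 1 of the 21 rose, *AT4G33440* (0.37, limma adjusted p = 0.0486), and it did not pass over all 16 libraries. Among all genes tested, 1.14% rose and 2.95% fell with Glc, and 0.732% rose and 1.91% fell from ABA to ABA + Glc. When Glc was added to ABA, 2 of the 21 rose and 0 fell by limma (2 and 2 at an unadjusted p under 0.05), with a median of 0.08. They were *AT3G15720* (0.46, limma adjusted p = 0.0037) and *AT2G43860* (0.51, limma adjusted p = 0.0259), of which the second did not pass over all 16 libraries (limma adjusted p = 0.0986). *ADPG2* had the largest rise of the 3 family members that passed here, at 0.83. *AT3G15720* at 25.8 ± 1.42 TPM (SD, n = 3) with ABA + Glc was still below its control, with a log2 fold change of -0.65 (limma adjusted p = 4.94e-06), and its Glc effect was higher with ABA than without by 0.70 (limma adjusted p = 0.000879).

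Polygalacturonase-inhibiting proteins bind such enzymes, and those known act mainly on enzymes of pathogens. *PGIP1* rose with ABA, with a log2 fold change of 0.93 (limma adjusted p = 0.000687). Its means (± SD) were 5.27 ± 1.22 TPM in control and 3.97 ± 0.536 TPM in Glc libraries (n = 4). They were 10.5 ± 2.22 TPM in ABA and 6.16 ± 1.18 TPM in ABA + Glc libraries (n = 3). From ABA to ABA + Glc 0 of the 2 tested inhibitors passed by limma, and over all 16 libraries 1 fell. *FLR1* was lower with ABA + Glc than in the control, with a log2 fold change of -0.40 (limma adjusted p = 0.00225). *PGIP2* was under the filter. The other 17 pectin methylesterases are described with *PME3*: of 18 tested, 9 fell and 2 rose with ABA (9 and 3 of 17 over all 16 libraries), with a median of -0.37. Of all genes tested, 13.3% fell and 10.4% rose with ABA. *PME3* had the largest fall of those with at least 10 TPM, followed by *PME44* (-0.98, limma adjusted p = 2.47e-06) and *PME7* (-0.84, limma adjusted p = 1.12e-05). With Glc 0 of the 18 passed by limma (0 higher and 1 lower where p before adjustment was under 0.05). From ABA to ABA + Glc 0 passed (2 higher and 1 lower unadjusted). In either direction, 4.09% of all genes tested passed with Glc and 2.65% from ABA to ABA + Glc.

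Pectin methylesterase inhibitors numbered 81 in the files, and 18 were tested. With ABA 6 fell and 2 rose, with a median of -0.05, where 13.3% of all genes tested fell and 10.4% rose. *PMEI12* (AT5G46960) fell, with means of 20.3 ± 4.90 TPM in control libraries (SD, n = 4) and 2.36 ± 0.525 TPM in ABA libraries (SD, n = 3) and a log2 fold change of -2.85 (limma adjusted p = 2.49e-09). *AT1G14890* rose by 0.74 (limma adjusted p = 0.00125) and *AT5G62350* fell, with a log2 fold change of -0.49 (limma adjusted p = 2.69e-06). The list follows annotation text and also holds the invertase inhibitors *C/VIF1* and *C/VIF2*, at control means of 161.6 and 14.1 TPM. Pectate lyases cleave the same backbone by another reaction, and of 12 tested 7 fell and 0 rose with ABA by limma (0 were higher at an unadjusted p under 0.05, and 6 fell over all 16 libraries), with a median of -0.53. *AT1G67750* had a log2 fold change of -1.60 (limma adjusted p = 5.45e-08) and *PMR6*, known from powdery mildew resistance, one of -0.45 (limma adjusted p = 0.000106).

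Homogalacturonan itself is made in the Golgi from UDP-galacturonic acid. Of 22 genes of its synthesis, 14 fell with ABA and 0 rose by limma (2 were higher at an unadjusted p under 0.05, and 11 fell over all 16 libraries), with a median of -0.34. Of all genes tested, 13.3% fell and 10.4% rose with ABA. The precursor genes *GAE1* (-0.86, limma adjusted p = 6.29e-10) and *UGD1* (-0.77, limma adjusted p = 2.98e-06) and the galacturonosyltransferase gene *GAUT15* (-0.78, limma adjusted p = 0.000312) had the largest falls of those with at least 10 TPM. With Glc alone 0 of the 22 passed by limma (1 higher and 2 lower where p before adjustment was under 0.05, median 0.01). From ABA to ABA + Glc 0 passed (1 higher and 1 lower unadjusted, median 0.10). The shares of all genes tested that passed were 4.09% with Glc and 2.65% from ABA to ABA + Glc.

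Regulators of abscission and dehiscence act upstream of cell separation in flowers and fruits. Of 27 in the files 6 were at 0 in all 14 libraries, among them *IND*, *SHP2*, *NST1* and *DOF4.7*, and 15 were tested. The peptide gene *IDA* had a mean of at most 0.0325 TPM in any treatment. Its receptor genes *HAE* and *HSL2* had control means of 0.3025 and 3.04 TPM, and *HSL2* rose with ABA by 0.44 (limma adjusted p = 0.00438). *HEC1*, a basic helix-loop-helix factor gene of the gynoecium, had means (± SD) of 32.4 ± 4.58 and 23.1 ± 0.636 TPM in control and Glc libraries (n = 4) and of 10.8 ± 0.810 and 14.4 ± 1.00 TPM in ABA and ABA + Glc libraries (n = 3). It fell with ABA, with a log2 fold change of -1.53 (limma adjusted p = 1.97e-09), and rose by 0.40 from ABA to ABA + Glc (limma adjusted p = 0.0318). *BOP2* (-0.48, limma adjusted p = 0.000278) and *KNAT1* (-0.36, limma adjusted p = 0.00569), which act in floral organ abscission, were also lower with ABA. In all, 3 of the 15 (20%) fell and 1 (6.67%) rose with ABA (4 and 1 over all 16 libraries). Over all genes tested 13.3% fell and 10.4% rose, so these counts lie near that background and nothing is read from them.

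The genes whose levels ran most like each member were taken from 10886 tested genes, by Pearson's r over the 14 libraries, which share 4 treatments. For *ADPG2* they were *ATEXPA10* (AT1G26770, r = 0.9739), an alpha-expansin gene, *AtGH9C2* (AT1G64390, r = 0.9673), an endoglucanase gene, and *FLZ8* (AT3G22550, r = 0.9587), a zinc finger gene. *ATEXPA10* had means (± SD) of 704 ± 42.0 and 980.1 ± 67.5 TPM in control and Glc libraries (n = 4) and of 454.8 ± 36.9 and 792.2 ± 19.8 TPM in ABA and ABA + Glc libraries (n = 3), in the same order as *ADPG2*. Around the group means its r with *ADPG2* was 0.437, so most of the likeness was between treatments.

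For *PME3* the closest were *sks5* (AT1G76160, r = 0.9962), a gene of the multicopper oxidase family, *BGAL1* (AT3G13750, r = 0.993), a beta-galactosidase gene, and *PIN2* (AT5G57090, r = 0.9919), an auxin efflux carrier gene. *sks5* had means (± SD) of 250.5 ± 6.14 and 229.9 ± 3.51 TPM in control and Glc libraries (n = 4) and of 123.5 ± 1.37 and 139.1 ± 1.79 TPM in ABA and ABA + Glc libraries (n = 3). For *PGX3* the highest r was lower, at 0.7729 for *ERV1*, 0.7589 for *HBP5* and 0.7345 for *UEV1A*, and *PGX3* itself stayed under 1 TPM. Around the group means these r were 0.753, 0.913 and 0.784, so the likeness lay among replicates and not between treatments. Over all 16 libraries the 3 r were 0.675, 0.7579 and 0.539. Nothing is read from these names.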

How the data were processed

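The libraries came from whole *sweet1* seeds, 4 per treatment, and were grouped by treatment and replicate number as labelled. The authors used Trimmomatic 0.38 for trimming, kallisto 0.44.0 on primary transcripts for quantification and sleuth for testing. What they deposited is 1 score per gene and library, headed TPM and scaled between libraries by a method not given in the sources used here. The labels and the methods name different sequencers. Without read counts, depth is unknown and counting error cannot be given.

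The filter kept genes with more than 0.5 TPM in 50% or more of the libraries. Tests were two-sided and came from limma 3.58.1 in R 4.3.3, fitted as 1 model of 4 group means on log2(TPM + 0.5) with the variance prior following the mean level. The minimum log2 fold change of 0.289 is 0.2 on the natural log scale, as in the study. The fit was tested on simulated data. The members, gene lists and tests were chosen with earlier results of these data known. Named genes are the 6 members, the 3 genes most correlated with each tested member among those with at least 10 TPM in the highest group, and up to 3 genes per list with the largest change that passed under ABA or from ABA to ABA + Glc where the higher group reached 10 TPM. Other genes were named after their values were seen: *HSL2*, *FLR1*, *AT4G33440* and those given for a level or as a check. Families were taken from the RefSeq annotation of TAIR10.1, polygalacturonases by name and pectin methylesterases by their InterPro entry, since their annotation text often also names an inhibitor domain. Coordinates and sequences are those of TAIR10.1, read with Biopython 1.88. Alternatives were the full set of 16 libraries, replicate number as a block, a fit to each comparison's own groups, pseudocounts of 0.1 and 1, no filter, a filter of 10 TPM, equal sums for every library, and the omission of each of the 14 libraries.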

Additional observations from a re-analysis of the deposited data

Results flagged for a closer look

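Of 24 groups of 4 libraries, 10 were at 0 throughout, and 4 of the other 14 held a value far from the rest by Dixon's test, which flags about 1 group in 20 by chance. *ADPG2* in ABA replicate 3 was at 14.64 TPM against 11.4 to 11.9 TPM in the other ABA libraries, and this is a library the study's gene table omits. *PGX3* in ABA replicate 4 was at 0.48 TPM. *ADPG1* and *PGX1* were each at 0.06 TPM in Glc replicate 3 and at 0 in the other Glc libraries, a pattern in which any value above 0 is flagged.

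The Glc effect on *PME3* differed between seeds with and without ABA, by 0.41 on the log2 scale (limma adjusted p = 0.000275).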

How the results depend on the processing

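Of the comparisons of *ADPG2*, *PGX3* and *PME3*, all kept their direction in every alternative run except the small values of *PGX3*, which did not pass under any, and calls changed for *ADPG2* in 2 comparisons. For ABA + Glc against the control, *ADPG2* passed over all 16 libraries (0.31, limma adjusted p = 0.0151), and the genes of the 6 that passed went from 1 to 2. Leaving out 1 library gave 0.22 to 0.33 and 1 to 2 genes. For ABA + Glc against Glc, *ADPG2* did not pass over all 16 libraries (-0.25, limma adjusted p = 0.0589) or at a pseudocount of 1 (-0.28), and the genes that passed went from 2 to 1 in both. Leaving out 1 library gave -0.32 to -0.25 and 1 to 2 genes. In each the change was of a value close to the minimum of 0.289.

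The replicate numbers did not pair the libraries: deviations of same-numbered libraries correlated at -0.065 to 0.123 (median 0.009), and 4 of 14 libraries were best with their own number. The replicate block changed no call on the members, with *ADPG2* at 0.56, -0.60 and 0.83 for Glc, ABA and Glc added to ABA.

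Counts over all genes moved by over 1.5 times in some alternatives. A filter of 10 TPM left 10343 genes to test (from 17498), so its lower counts come from a smaller set of genes. Of these, 1068 rose and 1292 fell with ABA (from 1815 and 2324). The counts were 694 and 931 with ABA + Glc (from 1216 and 1766), and 568 and 574 for ABA + Glc against Glc (from 951 and 1051). With every library at the same sum, 311 genes rose with Glc (from 200). That scaling moved the share of calls that were rises from 27.9 to 43.1% with Glc, 43.9 to 30.6% with ABA, 27.6 to 41.5% from ABA to ABA + Glc and 47.5 to 33.1% for ABA + Glc against Glc. Without 1 library, rises from ABA to ABA + Glc were as few as 66 (from 128) and falls 192 (from 335). Falls with Glc were 324 (from 516) without control replicate 1, and for the difference of the Glc effects 206 genes were higher (from 313) without ABA + Glc replicate 1.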
